A study of Homo sapiens with 6 samples.

Results

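This account covers the ligands, receptors and inhibitors of the Wnt pathway in iron-treated ARPE-19 cells, a human cell line derived from the retinal pigment epithelium. The genes were taken by their symbols in the array annotation: WNT, Frizzled (FZD), SFRP, DKK, R-spondin (RSPO), LGR4 to LGR6, LRP5 and LRP6, AXIN, NKD and TCF7 symbols, and APCDD1, LEF1, RNF43, ZNRF3, NOTUM, WIF1 and KREMEN1. Of 14884 genes with a named probe, 40 met this rule, each through 1 probe. They comprise 1 ligand (WNT2), 7 R-spondins and their LGR receptors, 12 Frizzled and LRP receptors, 13 secreted or membrane inhibitors, 6 receptor-removing ligases and cytoplasmic brakes, and 1 nuclear factor (LEF1). The remaining WNT ligands and the TCF7 genes have no named probe in the annotation used and were not analysed here.

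All cultures were brought to confluence and held in 1% serum for 4 weeks to differentiate, and the experiment was then run without serum. The FAC group received 250 µM FAC for 2 days, which the series title calls iron treatment and whose abbreviation the labels do not spell out. The untreated group received vehicle over the same 2 days. Each group held 3 biological replicates of this 1 cell line, with 1 array per replicate, and no label says more about how the replicates were separated. Values are log2 intensities, and a difference is the FAC mean minus the untreated mean ± SE (a log2 fold change), called at an adjusted p under 0.05 in limma with all 14884 genes in the adjustment. Probes differ in their affinity, so a difference in intensity between the probes of 2 genes is not read as a difference in abundance. Array medians over all probes lay between 6.03 and 6.09, and arrays correlated with r between 0.991 and 0.995. Of 16 measured markers of retinal pigment epithelium none passed the test by limma. An unadjusted p under 0.05 was seen in 3 of the 16, against 17.2% of all genes, and separate groups in 4 (25%), against 23.4%. FAC lay above for the visual cycle genes RLBP1 (0.31 ± 0.08, adjusted p = 0.0843) and RGR (0.32 ± 0.09, adjusted p = 0.117) and for the phagocytosis receptor gene MERTK (0.18 ± 0.09, adjusted p = 0.343), and below for the transcription factor gene MITF (-0.15 ± 0.06, adjusted p = 0.215). The groups overlapped for the other 12, among them the melanogenic gene TYRP1 (9.87 with FAC, 10.07 untreated), OTX2 (11.04 with FAC, 11.10 untreated), RPE65 (5.69 with FAC, 5.67 untreated) and BEST1 (5.97 with FAC, 5.89 untreated). Untreated replicate 2 was low for TYRP1 (9.48, other untreated arrays 10.45 and 10.28) and for TYR (6.88, other untreated arrays 7.97 and 7.86). Without detection calls, these intensities do not show which markers were expressed.

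Wnt proteins are secreted lipid-modified ligands that bind a Frizzled receptor together with LRP5 or LRP6 at the cell surface. In the canonical branch this stabilises beta-catenin, which enters the nucleus and acts with TCF/LEF factors on target genes. SFRP proteins, WIF1, NOTUM and APCDD1 act on the ligand or its reception. DKK1 and DKK2 act on LRP5 and LRP6, and R-spondins with LGR receptors protect Frizzled from removal by RNF43 and ZNRF3. In the eye, the pathway takes part in the specification of retinal pigment epithelium and in the patterning of the peripheral retina.

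Promoter windows of 3 members are shown because APCDD1 and FZD8 had the largest changes in opposite directions and DKK1 was the 1 member whose window held the core TCF/LEF letters CTTTGA. Each runs from 250 bases before to 50 bases after the RefSeq gene start (GRCh38.p14), written 5′ to 3′ on the gene's strand. The windows are chr18:10454385-10454684 on the plus strand for APCDD1, chr10:35642247-35642546 on the minus strand for FZD8 and chr10:52314031-52314330 on the plus strand for DKK1. Capitals mark CTTTGA, the TATA box letters TATAAA and the GC box letters GGGCGG, each on either strand, and these 3 motifs do not overlap in the windows shown.
APCDD1: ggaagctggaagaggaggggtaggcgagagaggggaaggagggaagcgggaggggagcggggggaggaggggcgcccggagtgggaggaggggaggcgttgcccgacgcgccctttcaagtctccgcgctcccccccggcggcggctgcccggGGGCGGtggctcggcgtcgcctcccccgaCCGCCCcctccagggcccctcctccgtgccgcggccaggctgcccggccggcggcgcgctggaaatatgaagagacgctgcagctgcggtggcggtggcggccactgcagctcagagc
FZD8: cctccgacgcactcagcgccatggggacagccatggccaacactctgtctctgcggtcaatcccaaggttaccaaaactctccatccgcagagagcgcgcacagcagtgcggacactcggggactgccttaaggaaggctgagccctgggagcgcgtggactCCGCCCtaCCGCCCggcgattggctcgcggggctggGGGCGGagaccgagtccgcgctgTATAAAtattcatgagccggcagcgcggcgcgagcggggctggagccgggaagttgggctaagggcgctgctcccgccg
DKK1: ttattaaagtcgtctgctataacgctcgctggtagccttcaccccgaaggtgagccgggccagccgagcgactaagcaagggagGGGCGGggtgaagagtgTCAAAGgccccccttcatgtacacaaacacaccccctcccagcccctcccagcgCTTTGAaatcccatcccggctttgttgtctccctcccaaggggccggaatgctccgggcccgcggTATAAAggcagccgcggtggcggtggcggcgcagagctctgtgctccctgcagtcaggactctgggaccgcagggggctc
RefSeq windows were found for 23 of the 40 members, 26 windows in all, since LGR6 and RNF43 have more than 1. The DKK1 window held CTTTGA 95 bases before the start on the gene's strand and 149 bases before it on the other strand. It also held TATAAA 30 bases before the start, and FZD8 held TATAAA 29 bases before it. The APCDD1 window held GGGCGG 97 and 68 bases before the start and no match to the other motifs. CTTTGA was present in 1 of the 26 member windows (3.85%), against 12.9% of all 35116 windows and 10.9% of the 22199 windows of protein-coding genes. TATAAA was present in 2 of 26 (7.69%), against 11.5% of all windows, and GGGCGG in 19 of 26 (73.1%), against 45% of all windows and 56.3% of those of protein-coding genes. These are letter matches in short windows and not binding sites.

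With FAC, 3 of the 40 Wnt genes rose and 2 fell. The 3 that rose all encode inhibitors or modulators of Wnt reception: APCDD1 was 1.93-fold higher, DKK2 1.44-fold higher and SFRP1 1.40-fold higher. The 2 that fell both encode Frizzled receptors: FZD8 was 1.69-fold lower and FZD7 1.28-fold lower. These 5 calls are 12.5% of the 40 genes, and 3.73% of all tested genes were called. By direction, 1.88% of all tested genes were called higher and 1.85% lower. At an unadjusted p under 0.05 there were 16 of the 40 Wnt genes, against 17.2% of all genes. In 17 of the 40 (42.5%) the groups did not overlap, against 23.4% of all genes. The median log2 fold change of the 40 was 0.02 and that of all genes was -0.0041, while the median size of the change without its sign was 0.10 in the 40 and 0.08 in all genes. The count of 5 became 3 without FAC replicate 1 and 2 when every probe of the table was tested. It became 9 without the dimmest genes (30 members tested) and 9 with a robust variance prior that follows intensity. In the same order, the share of all genes called was 0.99%, 0.75%, 8.47% and 6.89%. RNA was taken from whole cultures, so a change in RNA per cell and a change in the share of cells that express a gene cannot be told apart.

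**Figure D1:**
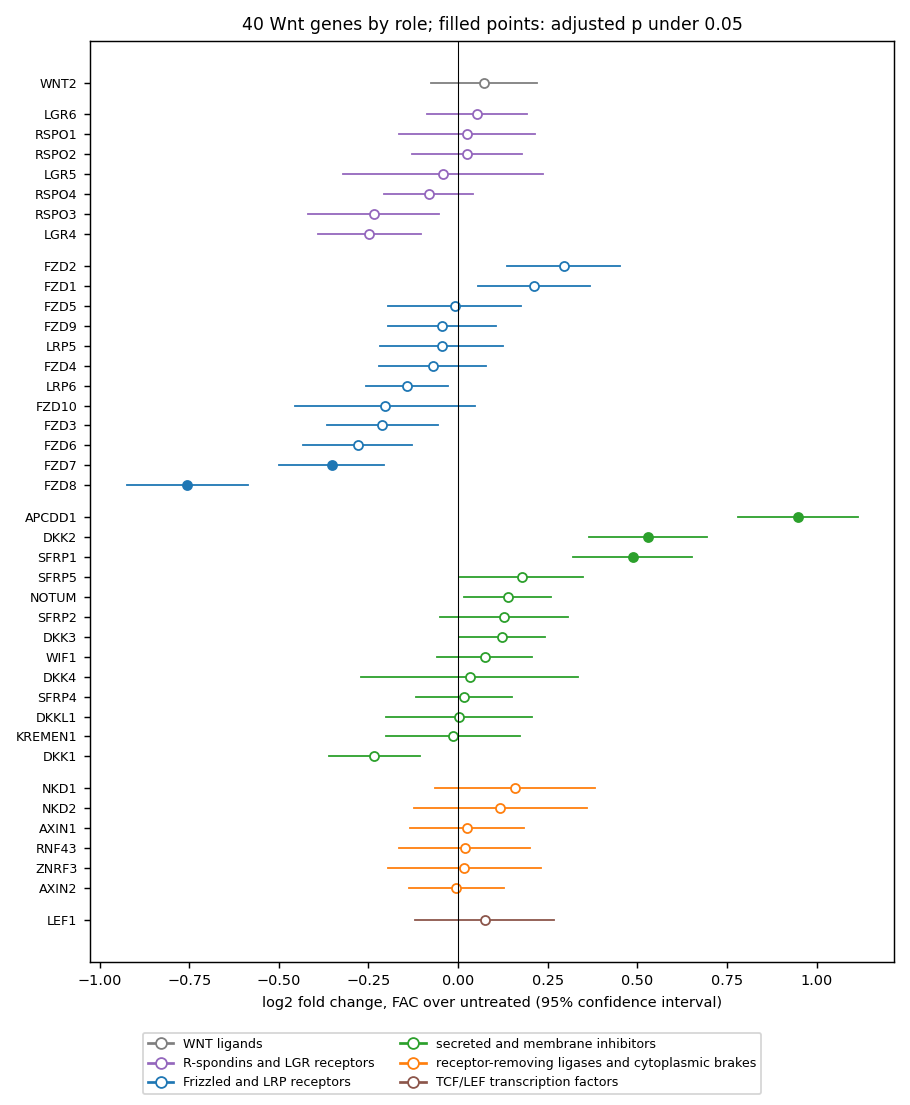
Log2 fold change of FAC over untreated for the 40 Wnt genes, grouped by role, with 95% confidence intervals from limma; filled points passed at an adjusted p under 0.05. The 3 filled points right of zero are the inhibitors APCDD1, DKK2 and SFRP1, and the 2 filled points left of zero are the receptors FZD7 and FZD8.

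Among the 13 secreted and membrane inhibitors, APCDD1, DKK2 and SFRP1 rose and none fell, and the median log2 fold change of the 13 was 0.12. Roles were assigned from gene symbols with earlier results of these data known, and DKK3 and DKKL1 were counted here as DKK family members. The action of the 13 on the pathway was not measured. APCDD1, a membrane glycoprotein that binds Wnt and LRP proteins and inhibits signalling, measured 7.83, 7.83 and 7.75 on the FAC arrays, against 6.73, 6.97 and 6.87 on the untreated arrays. All 3 FAC values lay above all 3 untreated ones. The means were 7.80 ± 0.05 with FAC and 6.85 ± 0.12 untreated (SD, n = 3 each), a log2 fold change of 0.95 ± 0.07 (adjusted p = 0.00128).

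DKK2, a secreted ligand of LRP5 and LRP6 that can inhibit or, in some settings, activate the pathway, measured 7.14, 6.94 and 7.01 with FAC, against 6.53, 6.56 and 6.41 untreated. The groups were again separate, with FAC replicate 1 the highest of the 6 arrays. The means were 7.03 ± 0.10 with FAC and 6.50 ± 0.08 untreated (SD, n = 3 each), a log2 fold change of 0.53 ± 0.07 (adjusted p = 0.00971). SFRP1, a secreted protein with a Frizzled-like domain that binds Wnt ligands, measured 10.95, 10.89 and 10.87 with FAC, against 10.50, 10.28 and 10.47 untreated. The FAC arrays lay close together and above every untreated array, of which untreated replicate 2 was the lowest. The means were 10.90 ± 0.04 with FAC and 10.42 ± 0.12 untreated (SD, n = 3 each), a log2 fold change of 0.49 ± 0.07 (adjusted p = 0.0134). SFRP1 did not pass without FAC replicate 1 (adjusted p = 0.0693), nor when every probe of the table was tested (adjusted p = 0.0648). With every probe tested DKK2 also missed the threshold (adjusted p = 0.0508). In the reference annotation a microRNA gene, MIR548AO, and 2 pseudogenes lie within the span of SFRP1, and no gene overlaps APCDD1 or DKK2.

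DKK1, the classical LRP5 and LRP6 antagonist, went the other way without passing the test. It measured 11.03, 10.97 and 10.99 with FAC, against 11.29, 11.17 and 11.24 untreated. The 2 groups did not overlap, and the log2 fold change was -0.23 ± 0.06 (adjusted p = 0.0658). DKK1 passed without the dimmest genes (adjusted p = 0.0284) and with the robust variance prior that follows intensity (adjusted p = 0.00361). Of the other inhibitors, the FAC arrays all lay above the untreated ones for SFRP5 (0.18 ± 0.07), NOTUM, an enzyme that removes the lipid of Wnt (0.14 ± 0.05), DKK3 (0.12 ± 0.05) and the Wnt-binding protein gene WIF1 (0.07 ± 0.06). None of these 4 passed, with adjusted p between 0.226 and 0.581. In all, FAC lay above in 7 of the 13, against 10.4% of all tested genes, and below in 1, against 13% of all tested genes. SFRP2 (0.13 ± 0.08), SFRP4 (0.02 ± 0.06), DKK4 (0.03 ± 0.13), DKKL1 (0.0022 ± 0.09) and the DKK receptor gene KREMEN1 (-0.01 ± 0.08) had overlapping groups. The fold change was positive for 11 of the 13 inhibitors, 11 with quantile normalization, 10 with arrays centred on their medians and 9 with array weights. Without single arrays it was positive for 9 to 12 of the 13. Over all 14884 tested genes, 7226 fold changes were positive.

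**Figure D2:**
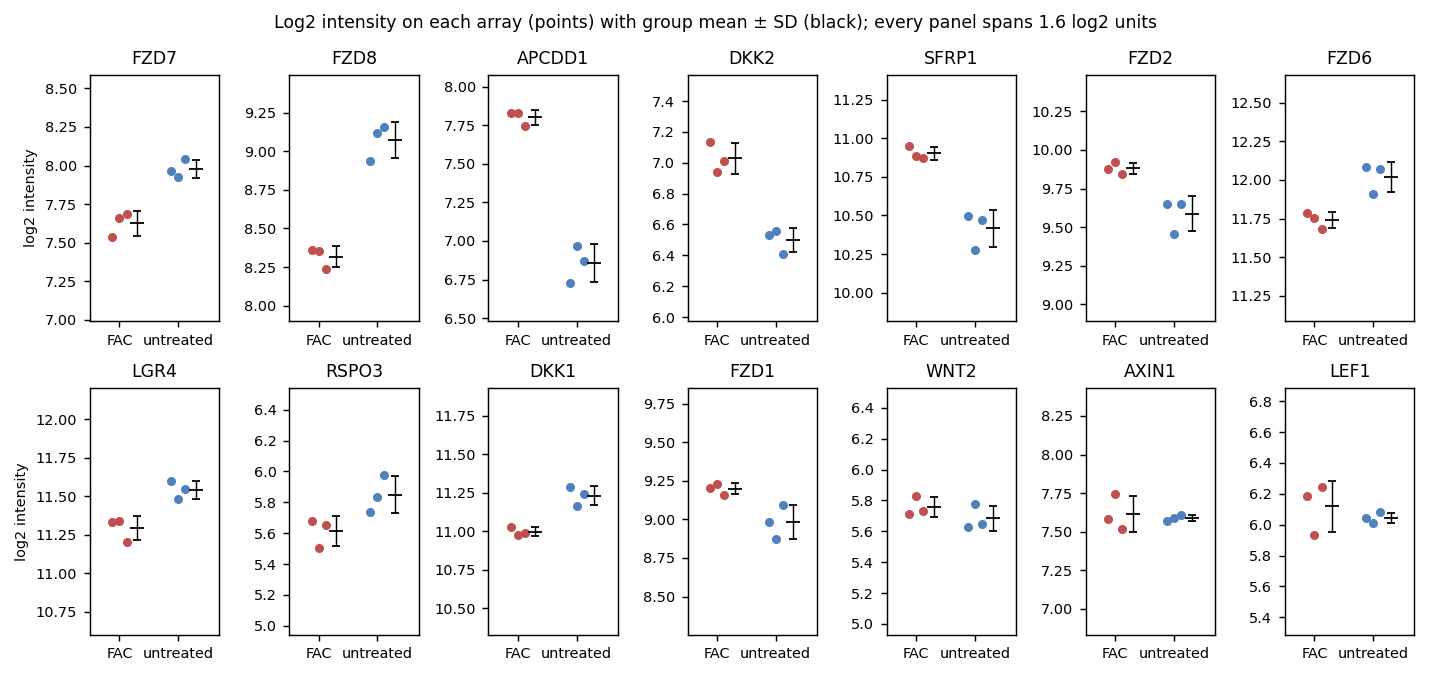
Log2 intensity on each array (points), with mean ± SD of 3 arrays per group in black, for 14 Wnt genes; FAC arrays are on the left and untreated arrays on the right of each panel, and every panel spans the same range. The groups do not overlap in the first 11 panels and overlap for WNT2, AXIN1 and LEF1.

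Of 12 Frizzled and LRP receptors, FZD7 and FZD8 fell and none rose, and the median log2 fold change of the 12 was -0.11. FZD8, a Frizzled of the same subfamily as FZD5, measured 8.36, 8.35 and 8.24 on the FAC arrays, against 8.94, 9.12 and 9.16 on the untreated arrays. Every FAC value lay well below every untreated one. The means were 8.32 ± 0.07 with FAC and 9.07 ± 0.12 untreated (SD, n = 3 each), a log2 fold change of -0.76 ± 0.07 (adjusted p = 0.00306). In the reference annotation a microRNA gene, MIR4683, and an uncharacterised locus overlap FZD8. Neither has a named probe, and the array value does not separate them.

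FZD7, which forms a subfamily with FZD1 and FZD2, measured 7.53, 7.66 and 7.68 with FAC, against 7.96, 7.93 and 8.05 untreated. The groups were separate, with FAC replicate 1 the lowest array. The means were 7.63 ± 0.08 with FAC and 7.98 ± 0.06 untreated (SD, n = 3 each), a log2 fold change of -0.35 ± 0.06 (adjusted p = 0.0267). This call is the least stable of the 5 and passed in 7 of 14 alternatives. It was lost without untreated replicate 1 (adjusted p = 0.0763) or untreated replicate 3 (0.103), and without FAC replicate 1 (0.106), FAC replicate 2 (0.0693) or FAC replicate 3 (0.0593). It was lost too when every probe was tested (adjusted p = 0.106) and with the replicate number as a block (adjusted p = 0.0670), while the direction held in all 14 alternatives.

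The other receptors did not pass the test, and their values ran in both directions. FZD2 measured 9.87, 9.92 and 9.85 with FAC, against 9.65, 9.46 and 9.65 untreated (0.29 ± 0.07, adjusted p = 0.0616). FZD1 measured 9.20, 9.23 and 9.16 with FAC, against 8.99, 8.87 and 9.10 untreated (0.21 ± 0.07, adjusted p = 0.155). All FAC arrays lay above all untreated arrays for both genes, the opposite of FZD7 in the same subfamily. FZD6, a receptor best known for its part in planar cell polarity, measured 11.79, 11.75 and 11.68 with FAC, against 12.08, 11.91 and 12.07 untreated (-0.28 ± 0.07, adjusted p = 0.0646). FZD6 passed without untreated replicate 2 (adjusted p = 0.0396), the lowest of the untreated arrays for this gene. FZD2 and FZD6 also passed without the dimmest genes (adjusted p = 0.0289 and 0.0298), with quantile normalization (0.0398 and 0.0475) and with the robust prior that follows intensity (0.00826 and 0.00386). FZD3, the closest relative of FZD6, had a log2 fold change of -0.21 ± 0.07 (adjusted p = 0.154), with separate groups. LRP6, the co-receptor, differed by -0.14 ± 0.05 (adjusted p = 0.186), also with separate groups, and its relative LRP5 by -0.05 ± 0.07 (adjusted p = 0.816). For FZD4 (-0.07 ± 0.06), FZD5 (-0.0096 ± 0.08), FZD9 (-0.04 ± 0.07) and FZD10 (-0.20 ± 0.11) the groups overlapped. FZD10 was at 5.96, 5.77 and 6.24 with FAC, against 6.20, 6.19 and 6.20 untreated, so its FAC replicates spread far more than its untreated ones. In all, FAC lay below in 5 of the 12 receptors, against 13% of all tested genes, and above in 2, against 10.4%. The fold change was negative for 10 of the 12, for 9 with quantile normalization and for 10 with arrays centred on their medians. Without single arrays it was negative for 9 or 10 of the 12. Over all 14884 tested genes, 7658 fold changes were negative.

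The called genes were then set against measured relatives of their own family, a choice made after their values were seen. The log2 intensity of a called gene minus that of its relative was taken on each array. The FAC mean of these values minus their untreated mean was tested by an exact 2-sided permutation over the 6 arrays. For this test 0.1 is the smallest possible p, so none of 8 pairs could reach 0.05 and the p-values decide nothing. On the log2 scale the change of FZD7 minus that of FZD2 was -0.65 and minus that of FZD1 -0.56, with p = 0.1 by exact permutation for each. FZD8 differed from FZD5 by -0.75 and DKK2 from DKK1 by 0.76, also with p = 0.1 by exact permutation. DKK2 differed from DKK3 by 0.41 and SFRP1 from SFRP2 by 0.36 (p = 0.1 each by exact permutation). DKK2 differed from DKK4 by 0.50 and SFRP1 from SFRP5 by 0.31 (p = 0.2 each by exact permutation). Adjusted over the 8 pairs by Benjamini-Hochberg, these exact permutation p-values became 0.133 and 0.2. Since the called genes were chosen for their change and the relatives with values known, these differences are a description; where the 2 genes moved in opposite directions without overlap, as FZD7 did against FZD1 and FZD2 and DKK2 against DKK1, separation of the groups was fixed by that choice.

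**Figure D3:**
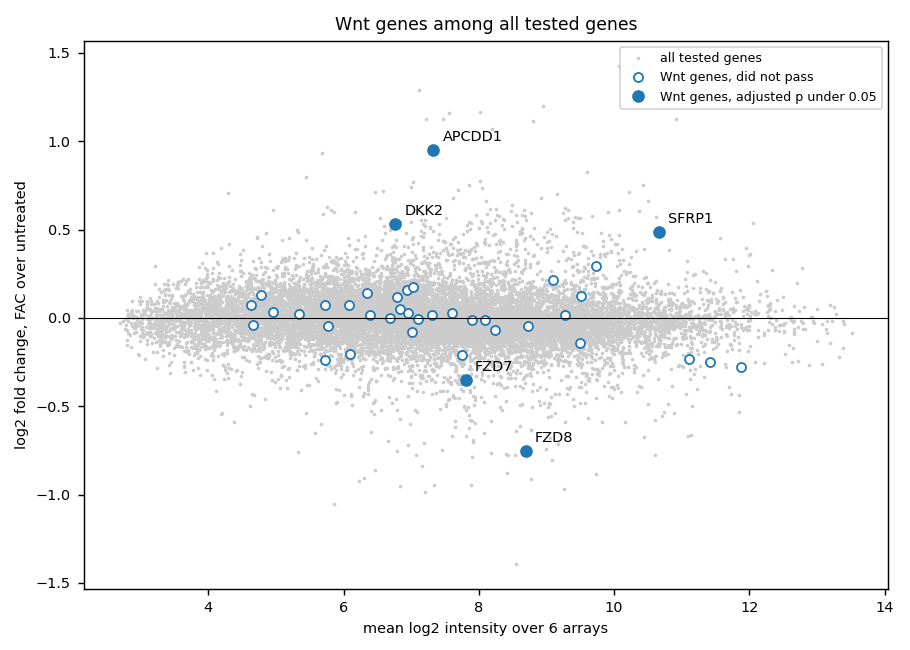
Mean log2 intensity over the 6 arrays (horizontal) and log2 fold change of FAC over untreated (vertical) for all 14884 tested genes (grey) and the 40 Wnt genes (blue, filled where the adjusted p was under 0.05). APCDD1 at 0.95 and FZD8 at -0.76 lie at the upper and lower edge of the Wnt genes, most of which lie within the grey band around zero.

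The measured ligand and the R-spondin branch held no gene that passed. WNT2 measured 5.71, 5.83 and 5.73 with FAC, against 5.63, 5.78 and 5.65 untreated (0.07 ± 0.06, adjusted p = 0.628). Its groups overlapped, and without detection calls it is not known whether this probe measured expression. LGR4, a receptor of the R-spondins, measured 11.33, 11.34 and 11.21 with FAC, against 11.60, 11.48 and 11.55 untreated (-0.25 ± 0.06, adjusted p = 0.0811). RSPO3, a secreted enhancer of Wnt signalling, measured 5.68, 5.51 and 5.65 with FAC, against 5.74, 5.83 and 5.98 untreated (-0.24 ± 0.08, adjusted p = 0.175). Both genes had separate groups with FAC below. LGR4 passed without the dimmest genes (adjusted p = 0.0374) and with the robust variance prior that follows intensity (adjusted p = 0.0060). The log2 fold changes of LGR5, LGR6, RSPO1, RSPO2 and RSPO4 lay between -0.08 and 0.05, with overlapping groups in each.

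The 6 receptor-removing ligases and cytoplasmic brakes did not pass, and all had overlapping groups. AXIN2, a scaffold of the complex that degrades beta-catenin and a widely used transcriptional readout of the canonical branch, measured 7.11, 7.15 and 7.03 with FAC, against 7.14, 7.05 and 7.11 untreated. Its log2 fold change was -0.0049, with a 95% confidence interval from -0.14 to 0.13 (adjusted p = 0.974). AXIN1, the constitutive scaffold, measured 7.58, 7.75 and 7.52 with FAC, against 7.57, 7.59 and 7.61 untreated (0.03 ± 0.07, adjusted p = 0.891). Without FAC replicate 2, the highest array, its value was -0.04. RNF43 (0.02 ± 0.08) and ZNRF3 (0.02 ± 0.09), the ligases that remove Frizzled from the surface, and the Dishevelled-binding proteins NKD1 (0.16 ± 0.10) and NKD2 (0.12 ± 0.10) did not pass either, with adjusted p between 0.464 and 0.943. LEF1, the 1 measured nuclear factor, measured 6.18, 5.93 and 6.24 with FAC, against 6.04, 6.01 and 6.08 untreated (0.07 ± 0.08, adjusted p = 0.716).

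Other genes of the pathway were read from 5 lists, of which 84 of 128 genes had a named probe. The lists were written with earlier results of these data known, so their share of calls is a description only. In these, 5 rose and 4 fell, 10.7% of the 84 against 3.73% of all tested genes, with a median log2 fold change of -0.0085. Among 18 measured genes of Wnt secretion and membrane co-receptors, of 20 listed, 3 rose and none fell, 16.7% against 3.73% of all tested genes. The 3 were the proteoglycan gene SDC4 (0.32 ± 0.05, adjusted p = 0.0213), WLS, which carries Wnt ligands to the cell surface (0.31 ± 0.06, adjusted p = 0.0420), and ROR1, a receptor tyrosine kinase that binds Wnt (0.26 ± 0.05, adjusted p = 0.0445). WLS measured 8.85, 8.85 and 8.80 with FAC, against 8.41, 8.56 and 8.59 untreated. The planar polarity genes PRICKLE1 and PRICKLE2 went in opposite directions, PRICKLE1 up (0.28 ± 0.06, adjusted p = 0.0436) and PRICKLE2 down (-0.32 ± 0.05, adjusted p = 0.0190). These were the 2 calls among 11 measured genes of that branch, of 23 listed, 18.2% against 3.73% of all tested genes. PRICKLE2 measured 9.57, 9.58 and 9.61 with FAC, against 9.86, 9.92 and 9.93 untreated, and PRICKLE1 8.74, 8.84 and 8.90 with FAC, against 8.53, 8.54 and 8.55 untreated. Of 29 listed genes of the destruction complex and cytoplasmic transduction, only 12 had a named probe. Beta-catenin itself (CTNNB1) and the Dishevelled genes were not among them. None of the 12 passed by limma, with 1 at an unadjusted p under 0.05, BTRC (-0.16 ± 0.05, adjusted p = 0.164). None of 13 measured nuclear partners, of 19 listed, passed by limma, again with 1 at an unadjusted p under 0.05, the repressor gene HBP1 (-0.19 ± 0.06, adjusted p = 0.145).

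Of 30 measured genes widely described as beta-catenin targets, of 37 listed, 1 rose and 3 fell. These are 13.3% of the 30, against 3.73% of all tested genes, and the median log2 fold change was 0.0026. BMP4, a ligand of the bone morphogenetic protein family, rose (0.66 ± 0.07, adjusted p = 0.00474). The angiogenic factor gene VEGFA (-0.49 ± 0.07, adjusted p = 0.0107), MYC (-0.46 ± 0.08, adjusted p = 0.0221) and the matricellular protein gene CCN2 (-0.26 ± 0.05, adjusted p = 0.0439) fell. Each of these 4 can also respond to other pathways, and which pathway their changes reflect was not tested. The count of 9 calls over the 5 lists became 5 with arrays centred on their medians, 2 with the replicate number as a block and 1 when every probe was tested. In the same order, the share of all genes called was 3.61%, 1.24% and 0.75%, against 3.73% as reported. It was 3 without untreated replicate 1, 5 without untreated replicate 2, and 2 without untreated replicate 3 or any 1 FAC replicate.

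**Figure D4:**
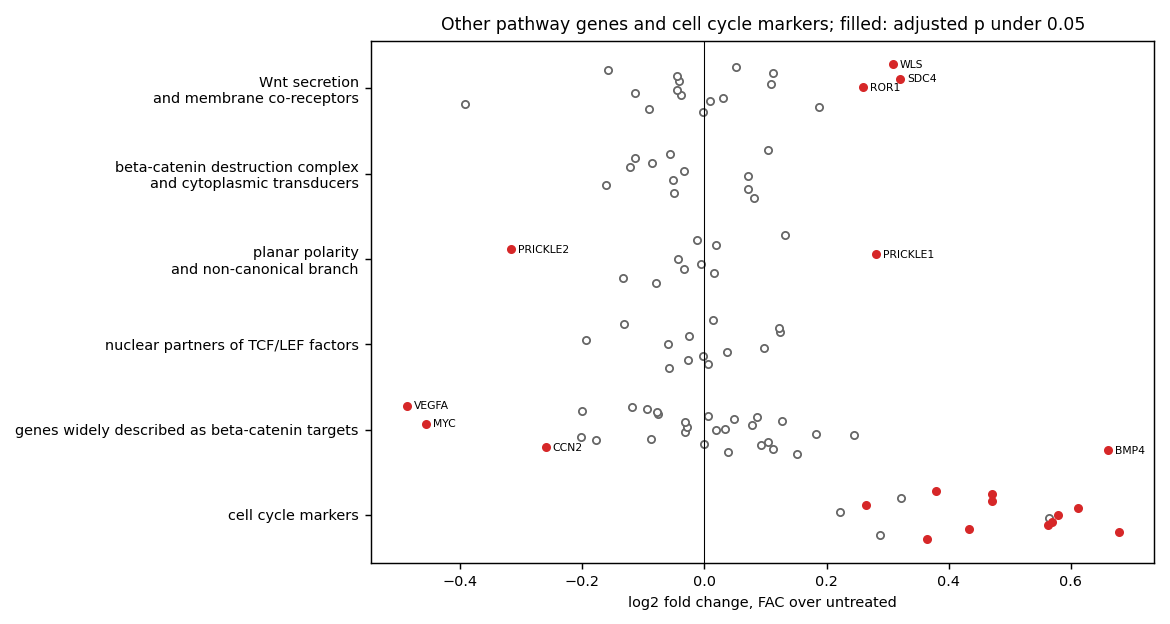
Log2 fold change of FAC over untreated for the other Wnt pathway genes in 5 lists and for 15 cell cycle markers; filled points passed at an adjusted p under 0.05 and are named except in the cell cycle row. The 9 calls in the Wnt lists go both ways, 5 higher and 4 lower, while all 15 cell cycle markers lie right of zero.

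Marker lists moved with the groups in several cases, and their part in the Wnt results was not tested. Of 15 cell cycle markers 11 rose and none fell, while 1.88% of all tested genes were called higher and 1.85% lower. The mean level of the 15 lay between 9.25 and 9.29 on the FAC arrays. On the untreated arrays it lay between 8.70 and 9.01, with untreated replicate 2 the highest untreated array. Over 6 measured fibroblast and smooth muscle markers, of 15 listed, the mean level lay between 7.67 and 7.75 with FAC and between 7.82 and 7.92 untreated. Of the 6, 1 fell, against 1.85% of all tested genes: LUM (-0.56 ± 0.08, adjusted p = 0.0104). FAC also lay below for DCN (-0.38 ± 0.09, adjusted p = 0.0539), and the groups overlapped for THY1, DES, S100A4 and VIM. Over 8 markers of neurons, glia and photoreceptors the mean level lay between 6.68 and 6.75 with FAC and between 6.59 and 6.62 untreated. None of the 8 was called by limma and 5 had an unadjusted p under 0.05, against 17.2% of all genes. FAC lay above in 4 of the 8, against 10.4% of all tested genes, and below in 1, against 13%. FAC lay above for RLBP1 (0.31 ± 0.08), SAG (0.27 ± 0.08), GFAP (0.23 ± 0.08) and AQP4 (0.18 ± 0.07), with adjusted p between 0.0843 and 0.238 by limma. It lay below for SYT1 (-0.21 ± 0.07, adjusted p = 0.174). RLBP1 counts both here and among the markers of retinal pigment epithelium. The markers of retinal pigment epithelium lay between 7.82 and 7.86 with FAC and between 7.74 and 7.91 untreated, and those of blood and endothelium between 7.03 and 7.11 with FAC and between 7.09 and 7.27 untreated, with overlapping groups in both. Of 6 blood and endothelial markers 1 fell, against 1.85% of all tested genes: CSF1R (-0.37 ± 0.07, adjusted p = 0.0365).

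**Figure D5:**
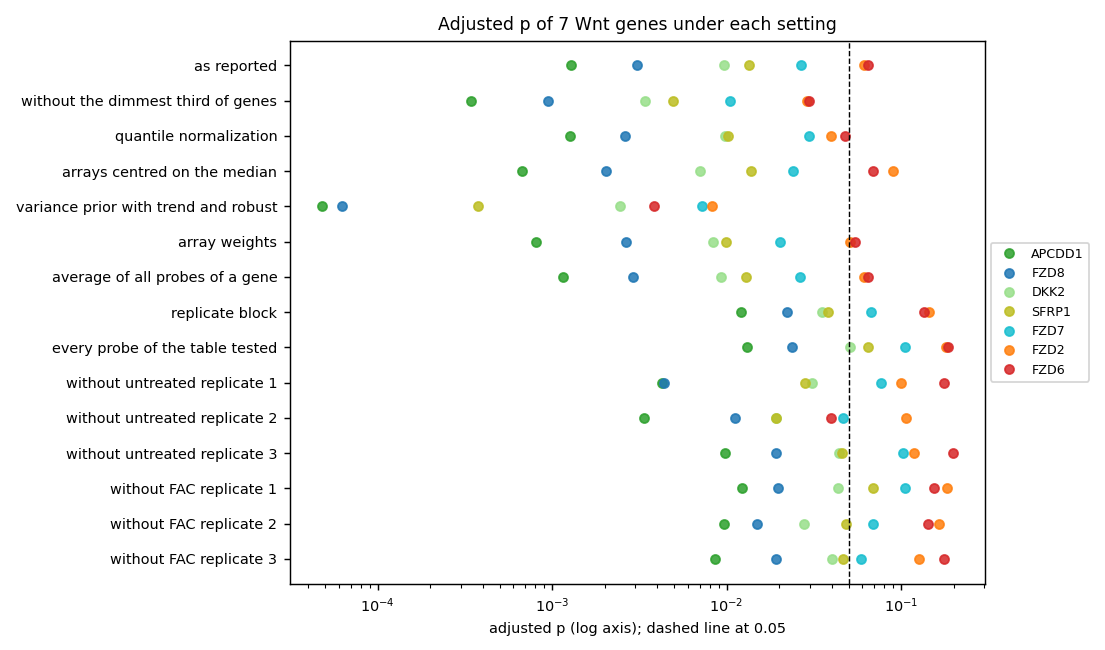
Adjusted p (log axis) of 7 Wnt genes as reported and under 14 alternative settings, with a dashed line at 0.05. APCDD1 and FZD8 lie left of the line in every setting, FZD7 in 7 of 14 alternatives, and FZD2 and FZD6 cross to the left in 3 and 4 of them.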

How the data were processed

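Biotin-labelled material from the total RNA of 6 cultures was measured on 6 arrays. The deposited values are log2 intensities of 53617 probes, from 2.41 to 14.22, a scale read from that range. The submitters' processing notes list RMA and Partek 6.6, with nothing on how either was used. No detection calls or scan batches were used here. The annotation gives 16098 probes 1 gene each, none several, and leaves 37519 unnamed. For 779 of 14884 genes the probe with the highest mean stood for several.

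Groups were tested with lmFit and eBayes (limma 3.58.1, R 4.3.3; no covariates) and Benjamini-Hochberg adjustment over all 14884 genes. The median SE was 0.07. Members, roles and lists were chosen with earlier results of these data known. Values on every array are given for called members, for up to 6 further members with the largest changes at an unadjusted p under 0.05 and for the member with the brightest probe in each role. Those of FZD10, AXIN2, WLS, PRICKLE1 and PRICKLE2, and the motifs TATAAA and GGGCGG, were added after values were seen. Of each pathway list up to 4 called genes are named, else those with the smallest p. Replicate numbers were not used to pair the arrays, except in the block alternative. Alternatives left out the dimmest 33.3% of genes, used quantiles, median centring, a trended robust prior, array weights, averaged probes, every probe or the replicate number as a block, or left out each array.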

Additional observations from a re-analysis of the deposited data

How the results depend on the processing

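APCDD1 and FZD8 passed in all 14 alternatives, DKK2 in 13, SFRP1 in 12 and FZD7 in 7, and the direction of these 5 genes held in all of them. Over 14 named members, 1 of 193 values changed sign (AXIN1, -0.040 without FAC replicate 2, with 0.075 the highest value when single arrays were left out). The 5 called members became 9 without the dimmest 33.3% of genes, which left 30 of the 40 members in the test, 9 with the trended robust prior and 2 with every probe tested; in the same order, those lower with FAC became 5, 5 and 1, and with every probe tested those higher with FAC became 1. Leaving out single arrays gave 3 to 6 called members, 2 to 3 higher and 1 to 3 lower. The 555 calls over all genes became 840 without the dimmest genes, 1026 with the trended robust prior and 538 with centred arrays. They became 111 with every probe tested and 147 to 447 without single arrays. The 9 calls among other pathway genes became 5 with centred arrays, 1 with every probe tested and 2 to 5 without single arrays. The median log2 fold change of the 40 members lay between -0.03 and 0.04 without single arrays. The share of member windows was 0% for CTTTGAT, against 2.62% of all windows, and 7.69% for CTTTGNT, which includes CTTTGAT, against 15.4%. With the replicate block, 4 members passed, 1 of them lower with FAC (FZD7 at an adjusted p of 0.0670), 184 genes passed in all and 2 of the other pathway genes. Deviations of same-numbered arrays correlated at -0.02, -0.03 and -0.15 over genes, so no shared shift of same-numbered arrays was seen. These values do not show whether same-numbered cultures were set up together, which no label states. The number of arrays limits the precision, and without detection calls a probe that measured no expression cannot be told from one that did not respond.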
